A study of Mus musculus with 21 samples.

Results

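The variable (V) genes of the T-cell receptor were followed in CD4+ and CD8+ T lymphocytes of the mouse spleen. They were chosen by name alone, as every listed gene whose symbol begins with Trav, Trbv, Trgv or Trdv and a number, and 124 of the 12994 genes in the table met this rule. They comprised 100 Trav genes of the alpha chain, 22 Trbv genes of the beta chain and 2 Trdv genes of the delta chain, while 0 Trgv genes of the gamma chain were listed.

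The cells came from female C57BL6/J mice that were moved at weaning, 4 weeks after birth, into an enriched environment (EE) or a standard environment (SE) for 4 weeks. EE was a large cage with running wheels, tunnels and toys that were replaced regularly, and SE was a smaller cage without objects. Spleen cells were sorted as CD45+ CD11b- CD3+ and either CD4+ (labelled LT4) or CD8+ (labelled LT8), and each sample was the RNA of a pool of sorted cells from 1 mouse. There were 6 CD4+ samples from EE and 5 from SE, and 6 CD8+ samples from EE and 4 from SE. By environment and animal number, the 21 samples came from 12 mice, of which 9 (6 EE and 3 SE) gave both populations. No agent, transgene or deletion was used in these groups. The labels state that the animals of each environment came from the same cage, so cage and environment cannot be told apart. A comparison of EE with SE is therefore between mice of 1 cage and mice of another, and its p-values measure the spread between those mice only.

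Each mature T cell makes its receptor by joining V, (D) and J segments, so that the V gene in the mRNA shows which segment that cell or its ancestor rearranged. The V segment encodes the first 2 of the loops that touch the MHC molecule and its peptide, and the third loop is formed at the junction. The Trav genes lie on chromosome 14 with the delta genes among and behind them, and the Trbv genes lie on chromosome 6. Usage of a V gene is thus a property of the mixture of clones in a sample. In a sorted pool, fewer cells with a V gene and less receptor mRNA per cell cannot be told apart.

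Libraries held between 145546 and 221454 molecules, counted by unique molecular identifiers (UMIs), and the V genes took 372 to 658 of them per sample. This was 0.268 to 0.350% (median 0.325%) of all molecules in CD4+ samples and 0.207 to 0.306% (median 0.264%) in CD8+ samples. The labels held against their markers. The normalized counts of Cd4 and Zbtb7b summed to 55.6 to 103 in CD4+ samples and to 0 to 1.86 in CD8+ samples, and those of Cd8a, Cd8b1 and Runx3 summed to 3.78 to 17.5 and to 297 to 358. The 6 general T-cell genes summed to 534 to 706 and 550 to 674. B-cell genes (9 of 9 measured) summed to 39.1 to 444 (median 261) in CD4+ samples and to 35.0 to 110 (median 45.1) in CD8+ samples, with Ms4a1 detected in 9 of 11 CD4+ and 0 of 10 CD8+ samples. Within CD4+ samples the B-cell sum ranged from 208 to 306 for EE and from 39.1 to 444 for SE, and within CD8+ samples from 35.0 to 110 and from 39.4 to 48.6. The part of B-cell RNA in the differences below was not tested. The NK and NKT list was measured for 2 of 4 genes. Its gene Klrd1 was at 3.66 to 13.8 in CD4+ and 41.7 to 81.2 in CD8+ samples, and Klrb1c reached at most 1.83 and 0.859. The myeloid list (2 of 4 genes measured) summed to at most 8.91 and 12.5, and the gamma delta list (1 of 5, Trdc) to at most 1.07 and 3.87.

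The results turn on 10 Trbv genes whose normalized counts differed between CD4+ and CD8+ cells. For each, the stretch that encodes the first variable loop is printed from the conserved cysteine codon to the conserved tryptophan codon, both in capitals, 5′ to 3′ on the coding strand, from the GENCODE M21 transcripts (GRCm38, the build named in the submitters' processing notes). The 5 genes that were higher in CD4+ cells are at chr6:40891229-40891885 (+), chr6:41047340-41047995 (+), chr6:41048290-41048828 (+), chr6:41062332-41062803 (+) and chr6:41557691-41558452 (-), in the order shown.
Trbv1: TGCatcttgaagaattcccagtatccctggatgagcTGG
Trbv2: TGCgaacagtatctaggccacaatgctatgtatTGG
Trbv3: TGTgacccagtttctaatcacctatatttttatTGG
Trbv5: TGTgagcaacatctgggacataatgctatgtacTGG
Trbv31: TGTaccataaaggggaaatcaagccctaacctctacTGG

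The 5 genes that were lower in CD4+ cells are at chr6:41113550-41114067 (+), chr6:41135145-41135616 (+), chr6:41151740-41152230 (+), chr6:41163062-41163556 (+) and chr6:41271394-41271881 (+), in the order shown.
Trbv12-1: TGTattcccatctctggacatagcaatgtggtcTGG
Trbv14: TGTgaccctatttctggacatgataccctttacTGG
Trbv16: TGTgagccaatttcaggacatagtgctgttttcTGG
Trbv17: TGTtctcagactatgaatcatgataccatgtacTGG
Trbv29: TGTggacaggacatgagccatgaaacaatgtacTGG

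How surely a molecule can be given to a gene differed between the chains. Their GENCODE M21 transcripts were compared with those of other V genes only. Of the 22 Trbv genes, 19 had no window of 50 bases in common with another V gene, and the closest Trbv pair was 90.6% identical. The Trav locus of this strain holds duplicated clusters, marked by the letters d and n in the gene names. Of the 100 Trav genes, 29 had no window of 50 bases that was unique among V genes, 32 were identical to another V gene and 89 were at least 95% identical to another. Reads of such copies could have been split between them by the alignment, so values of single Trav genes are uncertain and are also given below summed over copies and over families. The methods text names Encode recommendations for the alignment and default parameters for the molecule counts. It does not spell out how reads with several matches were handled.

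A pair of neighbours shows what separates similar Trbv genes. Trbv12-1 (chr6:41113550-41114067, +) and Trbv12-2 (chr6:41118851-41119364, +) differed at 24 of the 207 bases between their 2 conserved cysteine codons, and the differing bases are in capitals.
Trbv12-1: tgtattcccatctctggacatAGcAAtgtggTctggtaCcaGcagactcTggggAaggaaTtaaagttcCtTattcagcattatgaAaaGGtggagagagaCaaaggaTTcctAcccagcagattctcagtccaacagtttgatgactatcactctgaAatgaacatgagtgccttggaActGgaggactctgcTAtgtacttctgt
Trbv12-2: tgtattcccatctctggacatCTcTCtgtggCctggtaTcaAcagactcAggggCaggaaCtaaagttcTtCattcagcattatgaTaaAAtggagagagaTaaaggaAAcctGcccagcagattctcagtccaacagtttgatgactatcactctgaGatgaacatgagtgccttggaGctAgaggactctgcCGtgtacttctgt

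In contrast, Trav12-3 (chr14:53621657-53622245, +) and Trav12n-3 (chr14:53240745-53241244, +) differed at 4 of the 207 bases of the same stretch, again in capitals.
Trav12-3: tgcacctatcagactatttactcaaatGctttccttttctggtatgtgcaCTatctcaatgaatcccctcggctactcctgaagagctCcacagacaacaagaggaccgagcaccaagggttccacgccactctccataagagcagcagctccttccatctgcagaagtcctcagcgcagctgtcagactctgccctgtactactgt
Trav12n-3: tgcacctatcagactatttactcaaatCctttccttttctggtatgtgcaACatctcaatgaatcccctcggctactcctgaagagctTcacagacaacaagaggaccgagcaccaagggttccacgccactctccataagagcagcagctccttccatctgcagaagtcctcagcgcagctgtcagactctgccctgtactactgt

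CD4+ and CD8+ cells were compared first, to ask whether the populations that recognise MHC class II and class I draw on different V genes. The summed normalized count of all Trav genes was 176 to 291 (median 239) in CD4+ and 118 to 229 (median 168) in CD8+ samples, and that of all Trbv genes was 270 to 377 (median 315) and 239 to 343 (median 298). The ranges of both chains overlapped between the populations. Because the totals differ, each V gene is also given as its share of all Trav or all Trbv molecules of a sample. Molecules were counted once each from the 5′ end and were not divided by transcript length. Trac, the alpha constant gene, was at 22.3 to 52.9 in CD4+ and 13.0 to 36.9 in CD8+ samples.

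Of the 124 V genes, 59 had a mean normalized count above 2 and were tested. A gene that is high in 1 population and low in the other can pass this filter through the high population. With limma on log2(normalized count + 1) and a Benjamini-Hochberg adjusted p under 0.05, 16 of the 59 passed, 9 higher and 7 lower in CD4+ cells. Of all 7938 genes tested, 4.4% passed, 2.33% higher and 2.07% lower in CD4+ cells. At an unadjusted p under 0.05 the numbers were 24 of 59 V genes and 14.8% of all genes. The median log2 difference (CD4+ minus CD8+) was 0.36 over the 59 V genes and -0.01 over all genes tested. By chain, 10 of 20 tested Trbv genes passed (5 higher, 5 lower, median 0.42), and so did 6 of 39 tested Trav genes (4 higher, 2 lower, median 0.36). Without the filter, 15 of 124 V genes passed, against 3.0% of all 12994 genes. Limma draws the variance of each gene toward a trend over all genes. Within groups, V genes spread more than other genes (median 5.15 against 1.60 times the variance expected from counting at means of 10 to 50). At means of 2 to 10 the medians were 2.48 and 1.51. The limma p-values of V genes may thus be too small, and how much this adds to their excess over all genes was not tested.

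**Figure D1:**
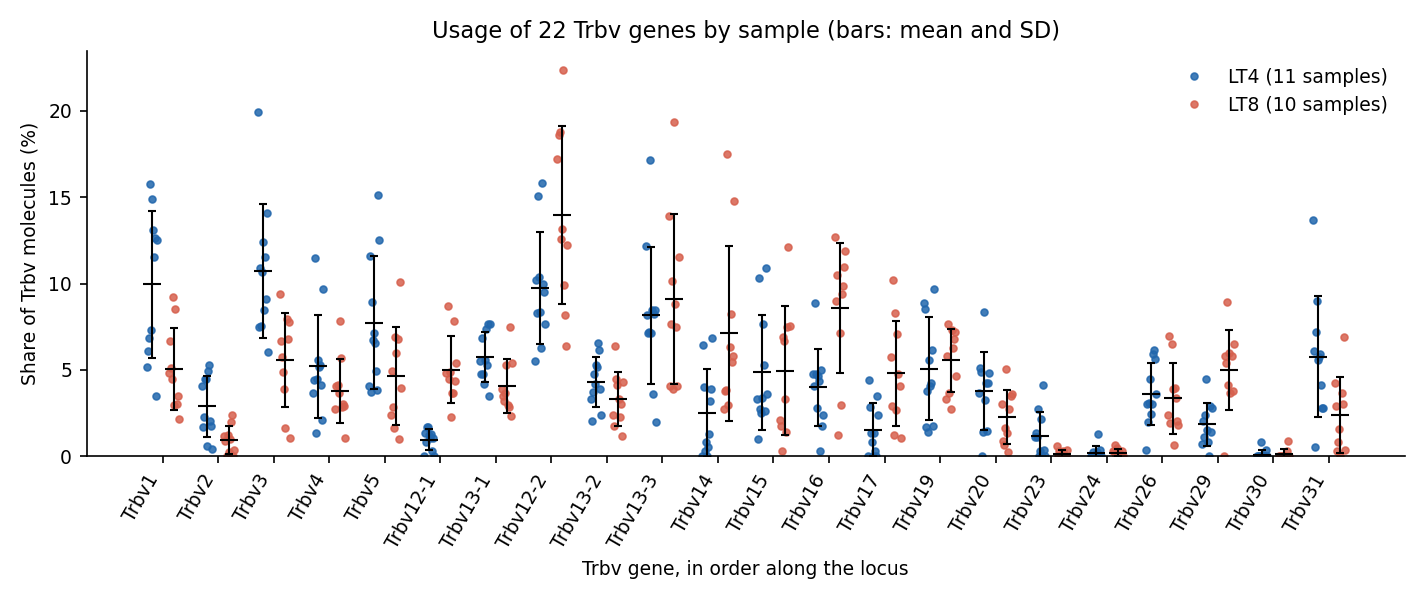
Share of all Trbv molecules (%, vertical axis) for the 22 Trbv genes in order along the locus, with 1 point per sample (LT4, CD4+ cells, blue; LT8, CD8+ cells, red) and bars for the mean and SD. Trbv12-1 is the gene whose 2 sets of points stay apart, at a mean of 0.965% in CD4+ and 5.01% in CD8+ samples.

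Trbv12-1 (ENSMUSG00000095574) showed the clearest separation. Its normalized count had a lowest, median and highest value of 0, 3.66 and 5.57 in CD4+ samples and of 7.91, 13.2 and 29.0 in CD8+ samples. Every CD8+ sample was above every CD4+ sample, and Trbv12-1 was the only 1 of the 59 tested V genes without overlap, against 0.869% of all tested genes. The log2 difference was -2.14 (SE 0.31, limma adjusted p = 5.08e-07). As a share of Trbv molecules it was 0.965% ± 0.615 (SD, n = 11) in CD4+ and 5.01% ± 1.93 (SD, n = 10) in CD8+ samples (2-sided permutation test, p = 2e-05, where 1e-05 is the smallest that 100000 resamples can give), and it was lower in the CD4+ cells of 9 of 9 mice with both populations (exact sign-flip permutation p = 0.00391, the smallest it can give). This call held when any 1 of the 21 samples was left out.

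Among the other beta-chain genes that were lower in CD4+ cells, Trbv14 (lowest, median and highest normalized count) was at 0, 3.66 and 20.4 in CD4+ and at 8.37, 15.6 and 41.7 in CD8+ samples. Its log2 difference was -1.78 (SE 0.36, limma adjusted p = 0.000381), and the groups overlapped. Trbv17 was at 0, 4.46 and 13.9 in CD4+ and at 2.88, 12.7 and 30.1 in CD8+ samples, a log2 difference of -1.64 (SE 0.41, limma adjusted p = 0.00582). The CD4+ samples were mostly the lower for both genes, but 5 of 11 lay inside the CD8+ range for Trbv14 and 6 of 11 for Trbv17. Trbv29 was at 0, 4.61 and 14.6 in CD4+ and at 0, 15.6 and 21.4 in CD8+ samples, a log2 difference of -1.21 (SE 0.36, limma adjusted p = 0.0338). The CD8+ value of 0 came from EE mouse 1, and the other EE CD8+ samples were at 14.2 to 21.4. Trbv16 was at 0.915, 13.8 and 33.1 in CD4+ and at 2.91, 29.1 and 39.1 in CD8+ samples, a log2 difference of -1.08 (SE 0.29, limma adjusted p = 0.0125). With mouse as a block its limma adjusted p was 0.0867, so its call was lost, and its ranges overlapped widely. With EE samples only the Trbv16 difference was -0.13 (limma adjusted p = 0.922), and with SE samples only it was -2.04 (0.000189). Its share differed by -2.26 percentage points within EE (exact permutation p = 0.281) and by -7.75 within SE (exact permutation p = 0.00794). For Trbv29 the difference was -0.70 with EE samples only (limma adjusted p = 0.530) and -1.72 with SE samples only (0.0304). By DESeq2 on the recovered molecules the calls of Trbv14 (adjusted p = 0.215), Trbv16, Trbv17 and Trbv29 were lost, and that of Trbv12-1 was kept. The Trbv17 call was also lost with SE samples only. The Trbv29 call was kept in 10 of the 21 fits that left out 1 sample (limma adjusted p up to 0.124, without the CD4+ cells of SE mouse 3), and the Trbv16 call in 20 of 21 (0.0569 without the same sample).

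Of the beta-chain genes that were higher in CD4+ cells, Trbv3 was at 16.9, 32.0 and 68.0 in CD4+ and at 2.88, 17.8 and 28.8 in CD8+ samples. Its log2 difference was 1.14 (SE 0.23, limma adjusted p = 0.000486), and its share of Trbv molecules, 10.7% ± 3.87 (SD, n = 11) against 5.59% ± 2.72 (SD, n = 10), was higher in the CD4+ cells of 9 of 9 mice. Trbv1, the first gene of the locus, was at 9.5, 32.0 and 51.2 in CD4+ and at 5.77, 12.8 and 31.6 in CD8+ samples, a log2 difference of 1.09 (SE 0.23, limma adjusted p = 0.000634). The groups overlapped for both, with the CD4+ median above the highest CD8+ sample. Trbv2 was at 1.13, 8.55 and 18.5 in CD4+ and at 0, 2.74 and 6.52 in CD8+ samples, a log2 difference of 1.51 (SE 0.38, limma adjusted p = 0.00767). Trbv5 was at 11.9, 21.9 and 40.8 in CD4+ and at 2.79, 13.0 and 30.9 in CD8+ samples, a log2 difference of 0.88 (SE 0.26, limma adjusted p = 0.0290). Trbv5 was among the less stable calls, since its limma adjusted p was 0.0723 with mouse as a block and it passed in 13 of the 21 fits that left out 1 sample (up to 0.222, without the CD8+ cells of SE mouse 2). Trbv31, which lies behind the beta constant genes in the opposite orientation, was at 2.14, 16.6 and 46.6 in CD4+ and at 0, 6.96 and 21.2 in CD8+ samples, a log2 difference of 1.40 (SE 0.36, limma adjusted p = 0.0104). Its call was lost without the CD8+ cells of SE mouse 6 (limma adjusted p = 0.0859). With EE samples only the Trbv31 difference was 2.13 (limma adjusted p = 0.00196), and with SE samples only it was 0.67 (0.693), with share differences of 5.37 and 0.771 percentage points. By DESeq2 the calls of Trbv31 and Trbv5 were lost (that of Trbv5 by edgeR too), and those of Trbv1, Trbv2 and Trbv3 were kept. With EE samples only the Trbv1 call was lost (limma adjusted p = 0.0656). With SE samples only those of Trbv2 (limma adjusted p = 0.420) and Trbv3 (0.140) were lost, and these differences kept their direction. Trbv5 passed with neither environment alone.

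Put together, the 5 Trbv genes called higher in CD4+ cells made up 24.4, 38.2 and 46.9% (lowest, median, highest) of Trbv molecules in CD4+ and 7.91, 19.1 and 29.0% in CD8+ samples. The 5 called lower made up 3.29, 10.7 and 18.4% in CD4+ and 21.7, 31.2 and 39.6% in CD8+ samples. These sums describe the size of the shift only, because the test on the same samples chose their members.

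**Figure D2:**
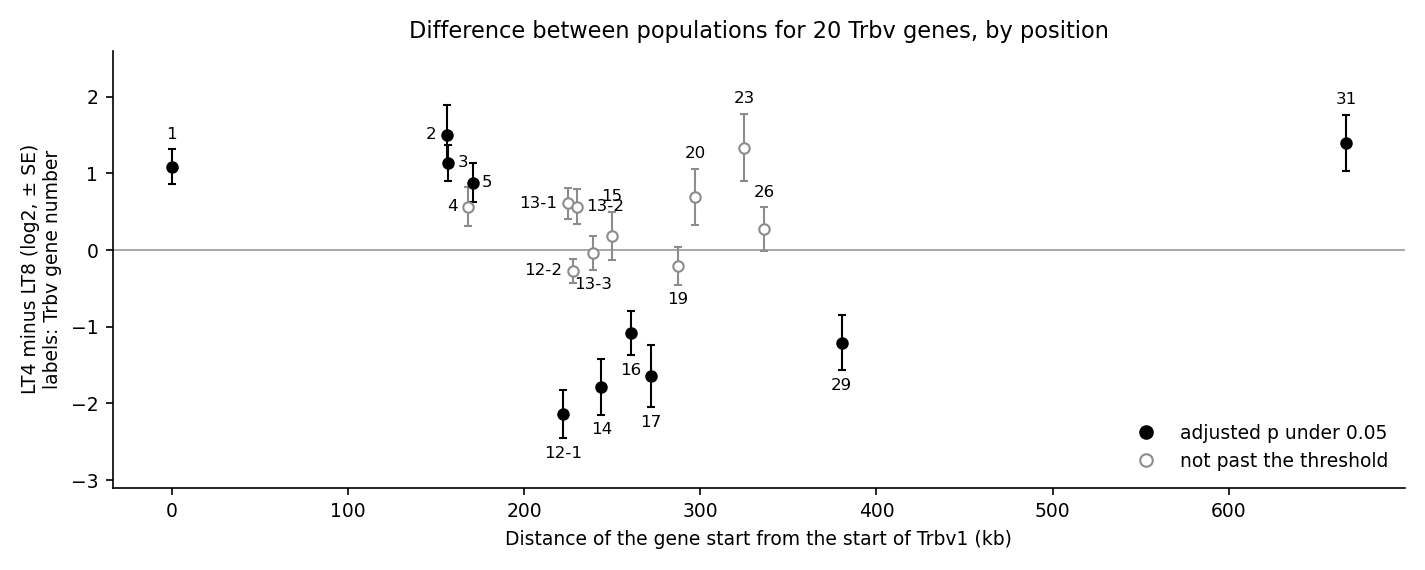
Log2 difference of normalized count (CD4+ minus CD8+, vertical axis, bars ± SE) of the 20 tested Trbv genes against the distance of each gene start from that of Trbv1 (kb). The 5 genes at the left end, Trbv1 to Trbv5, all lie above 0, and the 5 genes called lower lie to their right, between Trbv12-1 and Trbv29.

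Along the locus, Trbv1 to Trbv5, the first 5 genes, lie within 171 kb. All 5 had a positive log2 difference (median 1.09) and 4 of the 5 passed, all higher in CD4+ cells. Together they held a mean of 36.5% of Trbv molecules in CD4+ and 20.0% in CD8+ samples. Of the 15 tested genes behind them, 7 had a positive difference and 6 passed, of which Trbv31 was higher and 5 were lower in CD4+ cells. The cut after Trbv5 was set with the values in view.

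Neighbouring genes of a family differed in their values. Trbv12-1 and Trbv12-2 lie next to each other in their family, with Trbv13-1 between them. Trbv12-2 had a log2 difference of -0.27 (SE 0.15, limma adjusted p = 0.425) where Trbv12-1 had -2.14. Trbv12-2 made up 9.74% ± 3.22 (SD, n = 11) of Trbv molecules in CD4+ and 13.9% ± 5.15 (SD, n = 10) in CD8+ samples (permutation p = 0.0359), a difference of -7.47 percentage points within EE (exact permutation p = 0.00649) and of 0.675 within SE (exact permutation p = 0.825). The interaction of environment and population on its normalized count did not pass (limma adjusted p = 0.940), so a difference between the environments is not shown. Trbv13-1 had a log2 difference of 0.61 (limma adjusted p = 0.0794), and with mouse as a block its adjusted p was 0.0226. It also passed without the CD4+ cells of SE mouse 5 (limma adjusted p = 0.0239), the CD8+ cells of EE mouse 5 (0.0441) or those of SE mouse 2 (0.0296). Trbv13-2 (0.57, limma adjusted p = 0.198) and Trbv13-3 (-0.04, limma adjusted p = 0.966) did not pass. Trbv23, annotated downstream of these, had a difference of 1.34 with a limma adjusted p of 0.0676. It passed by edgeR, by DESeq2 and in the limma fits without the CD4+ cells of EE mouse 5, SE mouse 3 or SE mouse 6. Trbv19 held 5.07% ± 2.96 (SD, n = 11) and 5.55% ± 1.81 (SD, n = 10), a difference within the spread between samples (permutation p = 0.661).

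In the alpha chain, 6 single genes passed. Trav6-5, lowest, median and highest, was at 1.90, 5.04 and 11.0 in CD4+ and at 0, 1.32 and 4.85 in CD8+ samples (log2 difference 1.46, limma adjusted p = 0.00793). Trav13d-2 was at 2.75, 6.40 and 15.0 in CD4+ and at 0, 1.93 and 6.18 in CD8+ samples (1.35, limma adjusted p = 0.00956). For both, the CD4+ samples were mostly the higher, and the ranges overlapped. Trav7-4 was at 2.25, 6.41 and 13.7 in CD4+ and at 0, 1.77 and 7.12 in CD8+ samples (1.43, limma adjusted p = 0.0112, 0.0565 with mouse as a block, and lost by DESeq2 and edgeR). Trav14-2 was at 1.83, 7.56 and 10.1 in CD4+ and at 0, 1.90 and 6.85 in CD8+ samples (1.22, limma adjusted p = 0.0226). These ranges also overlapped, and with EE samples only the Trav14-2 difference was 1.68 (limma adjusted p = 0.0345) against 0.76 (0.692) with SE samples only. Its share differed by 1.95 percentage points within EE (exact permutation p = 0.0238) and by 0.635 within SE (exact permutation p = 0.492). The call of Trav14-2 was lost without the CD4+ cells of SE mouse 3 (limma adjusted p = 0.0524) or the CD8+ cells of SE mouse 3 (0.0537) or 6 (0.0982).

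In the other direction, Trav12n-3 was at 0, 1.90 and 7.32 in CD4+ and at 1.94, 5.82 and 11.9 in CD8+ samples (-1.26, limma adjusted p = 0.0231, and 0.115 with mouse as a block). Its share of Trav molecules, 1.05% ± 0.918 (SD, n = 11) against 3.69% ± 1.77 (SD, n = 10), was lower in the CD4+ cells of 9 of 9 mice. Its call was kept in 15 of the 21 fits that left out 1 sample (limma adjusted p up to 0.0697, without the CD4+ cells of SE mouse 6). Trav7-3 was at 0, 0 and 3.38 in CD4+ and at 0, 2.80 and 7.73 in CD8+ samples (-1.31, limma adjusted p = 0.0417, and 0.105 with mouse as a block). Most CD4+ samples held no Trav7-3 molecule at all, and its call was kept in 8 of the 18 fits without 1 sample in which it was tested (limma adjusted p up to 0.0999, without the CD4+ cells of SE mouse 5).

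The copies of Trav12-3 went different ways. Trav12n-3 had 27 molecules in all CD4+ and 70 in all CD8+ samples, while Trav12-3, which differs from it at the 4 capital letters shown above and at 12 of 353 bases in all, had 30 and 5. Trav12d-3, identical to Trav12n-3 over the 347 bases compared, had 5 and 17. Summed over the 3 copies, 62 and 92 molecules gave a log2 difference of -0.59 (SE 0.30, limma adjusted p = 0.347), so the sum of the copies did not pass where Trav12n-3 alone did. For Trav7-3 the sum of its 2 copies did not pass either (-0.97, limma adjusted p = 0.233), and for Trav14-2 the sum of 3 gave 1.01 (limma adjusted p = 0.0573). The sums over copies passed for Trav13-2 (1.29, limma adjusted p = 0.00814), Trav7-4 (1.51, limma adjusted p = 0.00932) and Trav6-5 (1.23, limma adjusted p = 0.0257).

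**Figure D3:**
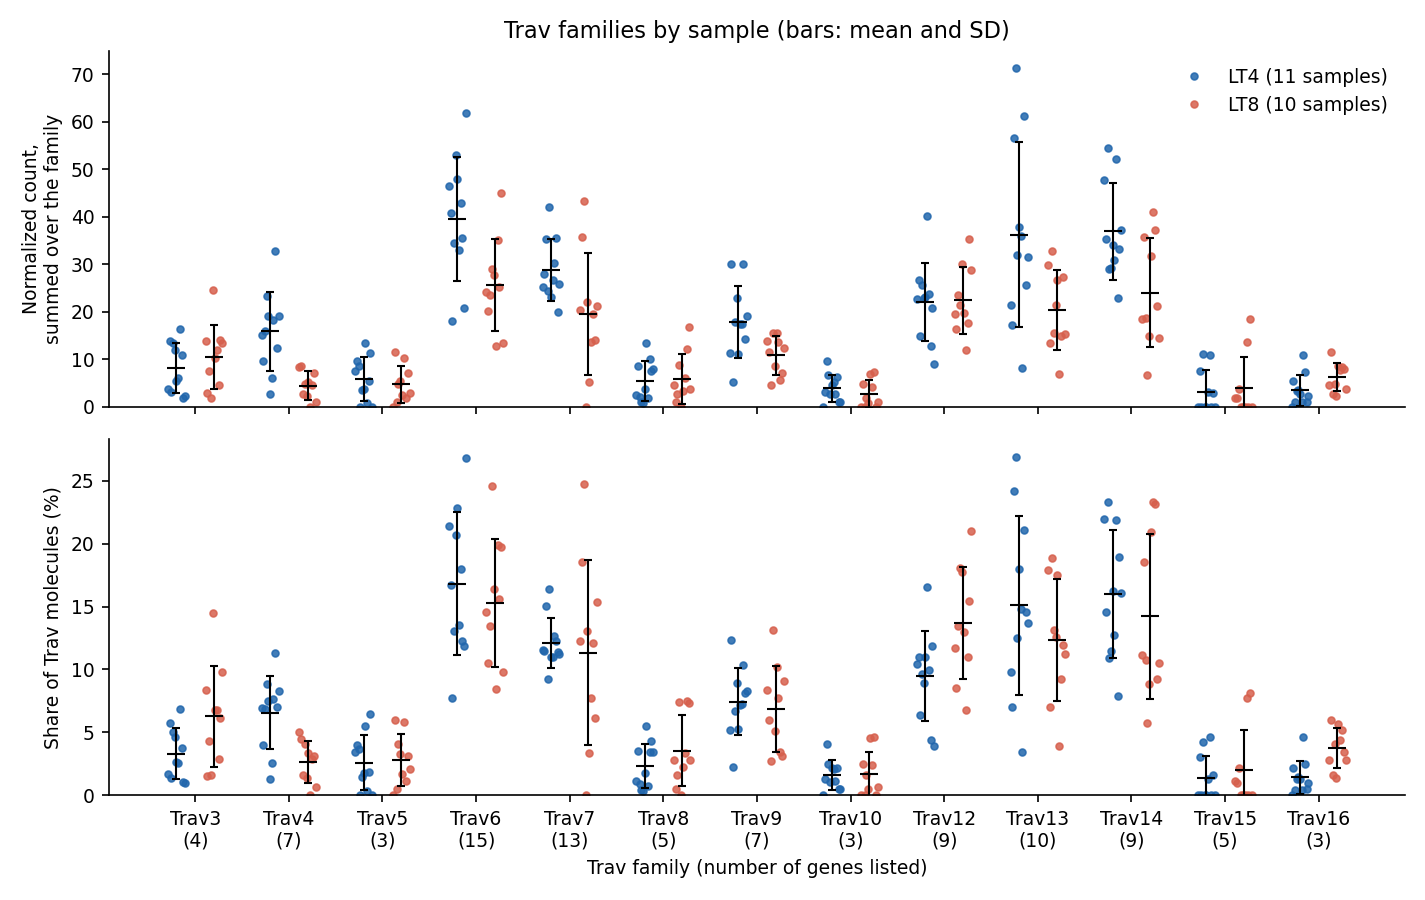
Trav families by sample (CD4+ cells, LT4, blue; CD8+ cells, LT8, red; bars, mean and SD), as the summed normalized count (upper panel) and as share of Trav molecules (%, lower panel), with the number of listed genes in parentheses. Trav4 is higher in CD4+ samples on both scales, whereas Trav6, Trav13 and Trav14 differ in normalized count more than in share.

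Summed over families, which sets the question of copies aside, 14 of 30 tested families passed (9 higher, 5 lower in CD4+ cells), against 4.39% of all features in that fit. The Trbv families were those of the genes above, with the Trbv12 family at -0.65 (SE 0.15, limma adjusted p = 0.00187). In the alpha chain the Trav4 family of 7 genes stood out. Its summed normalized count was 2.77, 16.0 and 32.9 (lowest, median, highest) in CD4+ and 0, 4.76 and 8.70 in CD8+ samples, a log2 difference of 1.80 (SE 0.32, limma adjusted p = 3.03e-05). The groups overlapped, with the CD4+ median above the highest CD8+ sample. Its share of Trav molecules was 6.57% ± 2.89 (SD, n = 11) and 2.67% ± 1.68 (SD, n = 10), from 173 and 49 molecules. Of its 7 genes only Trav4-4-dv10 had a mean above 2, and by itself it did not pass (0.95, limma adjusted p = 0.290), although edgeR on the recovered molecules called it. Its Trav4-4 copies (Trav4-4-dv10, Trav4d-4 and Trav4n-4) had 115 and 27 molecules and passed as a sum (1.86, SE 0.37, limma adjusted p = 0.000314).

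The Trav13 family (0.75, limma adjusted p = 0.0355), the Trav14 family (0.66, limma adjusted p = 0.0259) and the Trav6 family (0.58, limma adjusted p = 0.0433) were also higher in CD4+ cells as normalized counts. Their mean shares of Trav molecules were 15.1 and 12.3%, 16.0 and 14.2%, and 16.8 and 15.3%, and so lay closer together than their counts. The Trav12 family had a log2 difference of -0.07 and shares of 9.46 and 13.7%. The Trav3 family had shares of 3.31 and 6.27%. The d copies, the n copies and the genes without either letter, which lie on both sides of them, held 28.2, 22.7 and 49.1% of Trav molecules in CD4+ and 26.0, 25.2 and 48.8% in CD8+ samples.

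Tests on shares are free of the difference in chain totals. Of 33 shares of named genes tested by permutation, without adjustment, 17 had a p under 0.05, among them 14 of the 16 genes called on normalized counts. Those 16 were named for the difference in the same samples, so these counts restate the calls on another scale and are no independent evidence. The exceptions were Trav7-4 (2.72 and 1.84%, permutation p = 0.240) and Trbv5 (7.73 and 4.67%, permutation p = 0.0541). Genes that did not pass on counts but had a p under 0.05 on shares were Trbv12-2, Trbv13-1 (5.75 and 4.06%, permutation p = 0.0201) and Trav3d-3 (1.5 and 3.29%, permutation p = 0.0222). Paired within the 9 mice that gave both populations, 14 shares had an exact sign-flip permutation p under 0.05. Those that then missed it were Trbv12-2 (0.0859), Trav3d-3 (0.0820), Trav6-5 (0.160) and Trav13d-2 (0.0664), and Trav14d-3-dv8 was gained (0.0391). Among the Trbv genes called, the mean shares in CD4+ and CD8+ samples were 3.99 and 8.57% for Trbv16, 2.50 and 7.13% for Trbv14, 1.56 and 4.80% for Trbv17, and 1.85 and 5.00% for Trbv29. They were 9.94 and 5.05% for Trbv1, 5.77 and 2.39% for Trbv31, and 2.91 and 0.926% for Trbv2. The other large Trav genes, Trav12-2 (3.06 and 3.94%), Trav13-1 (2.14 and 3.43%), Trav14d-1 (3.32 and 3.26%), Trav6-6 (2.77 and 1.91%) and Trav6n-7 (2.59 and 2.54%), differed by less than the spread between samples.

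The breadth of usage overlapped between the populations. The effective number of V genes (the inverse Simpson index, the number of equally used genes that would give the same evenness) was 31.2 to 43.0 (median 38.7) for Trav in CD4+ and 23.5 to 46.4 (median 36.2) in CD8+ samples. For Trbv it was 9.95 to 14.7 (median 12.3) and 8.72 to 15.8 (median 11.8). Samples detected 56 to 72 Trav genes in CD4+ and 50 to 71 in CD8+ cells, and 17 to 22 and 19 to 20 Trbv genes. All of these values also depend on the number of molecules, which was 122 to 318 per sample for Trav, and few molecules lower them. Corrected for the number of molecules, the index was 36.2 to 55.4 (median 45.8) for Trav in CD4+ samples. In CD8+ samples it was 26.9 to 56.2 (median 44.2). For Trbv the corrected values were 10.3 to 15.4 (median 12.8) and 8.95 to 16.6 (median 12.3).

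Usage profiles were compared by the percentage of usage that 2 samples share. For Trbv, pairs of CD4+ samples shared 57.1 to 83.5% (median 71.6%, 55 pairs) and pairs of CD8+ samples 58.1 to 80.2% (median 69.1%, 45 pairs). Samples of different population and mouse shared 50.3 to 80.6% (median 63.2%, 101 pairs), and the CD4+ and CD8+ samples of the same mouse 53.4 to 70.0% (median 63.1%, 9 pairs). The median within a mouse lay beside that between different mice, and both lay below the medians within a population. For Trav the medians were 49.8% within CD4+, 45.6% within CD8+, 46.5% between populations and 46.3% within a mouse. The mean profiles of CD4+ and CD8+ cells shared 74.6% for Trbv and 78.1% for Trav. Pairs share samples, so these are descriptions.

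**Figure D4:**
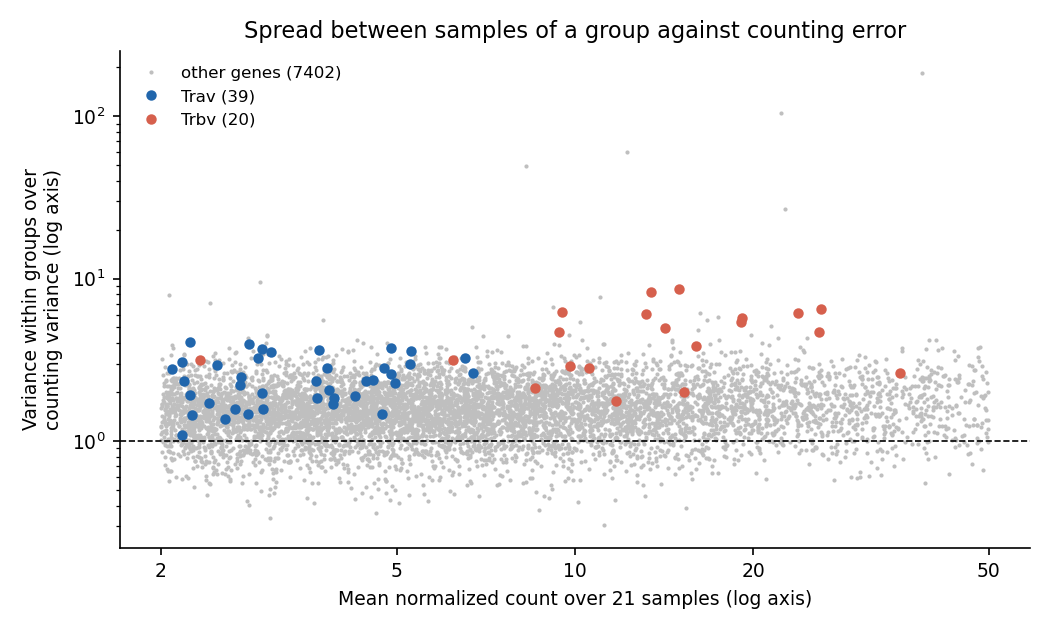
Variance between samples of a group over the variance expected from counting (vertical log axis, dashed line at 1) against the mean normalized count over the 21 samples (horizontal log axis), for genes with a mean of 2 to 50. Trbv genes (red) and Trav genes (blue) lie mostly above the bulk of the other genes (grey), up to 8.6 for Trbv15.

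V genes also varied more between mice of the same group than other genes did. For genes with a mean normalized count of 10 to 50, the variance within groups was 5.15 times the counting variance in the median of 14 V genes (1.76 to 8.6), and 1.60 times in the median of 2236 other genes. All 14 lay above that median and 12 above the 90th percentile of the other genes. At a mean of 2 to 10 the medians were 2.48 for 45 V genes (1.08 to 6.21) and 1.51 for 5166 other genes, and 25 of the 45 were above the 90th percentile. The largest ratios were those of Trbv15 (8.6), Trbv14 (8.25) and Trbv13-3 (6.50). Trbv12-1 and Trbv12-2 were among the steadier ones at 2.13 and 2.62. Because limma shares variance across genes, this spread bears on every limma count of V genes or families set against all genes. Its part in those counts was not tested.

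EE was then compared with SE within each population, the comparison for which the study was designed. In CD4+ cells 0 of 69 tested V genes passed by limma, against 0.0126% of all 7939 genes, and 6 of the 69 had an unadjusted p under 0.05, against 5.82% of all genes. The myeloid genes summed to 0 in all 6 EE and to 0.856 to 12.5 in the 4 SE samples of CD8+ cells, and their part in the comparison was not tested. In CD8+ cells 0 of 51 V genes passed, against 0.0% of all 7840 genes, and 9 of the 51 had an unadjusted p under 0.05, against 5.27%. The difference between the 2 environment effects was tested as an interaction, where 0 of 59 V genes passed, against 0.0% of all genes, and 5 of the 59 had an unadjusted p under 0.05, against 4.95%. By edgeR and by DESeq2 on the recovered molecules, 0 V genes passed in any of these 3 comparisons.

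**Figure D5:**
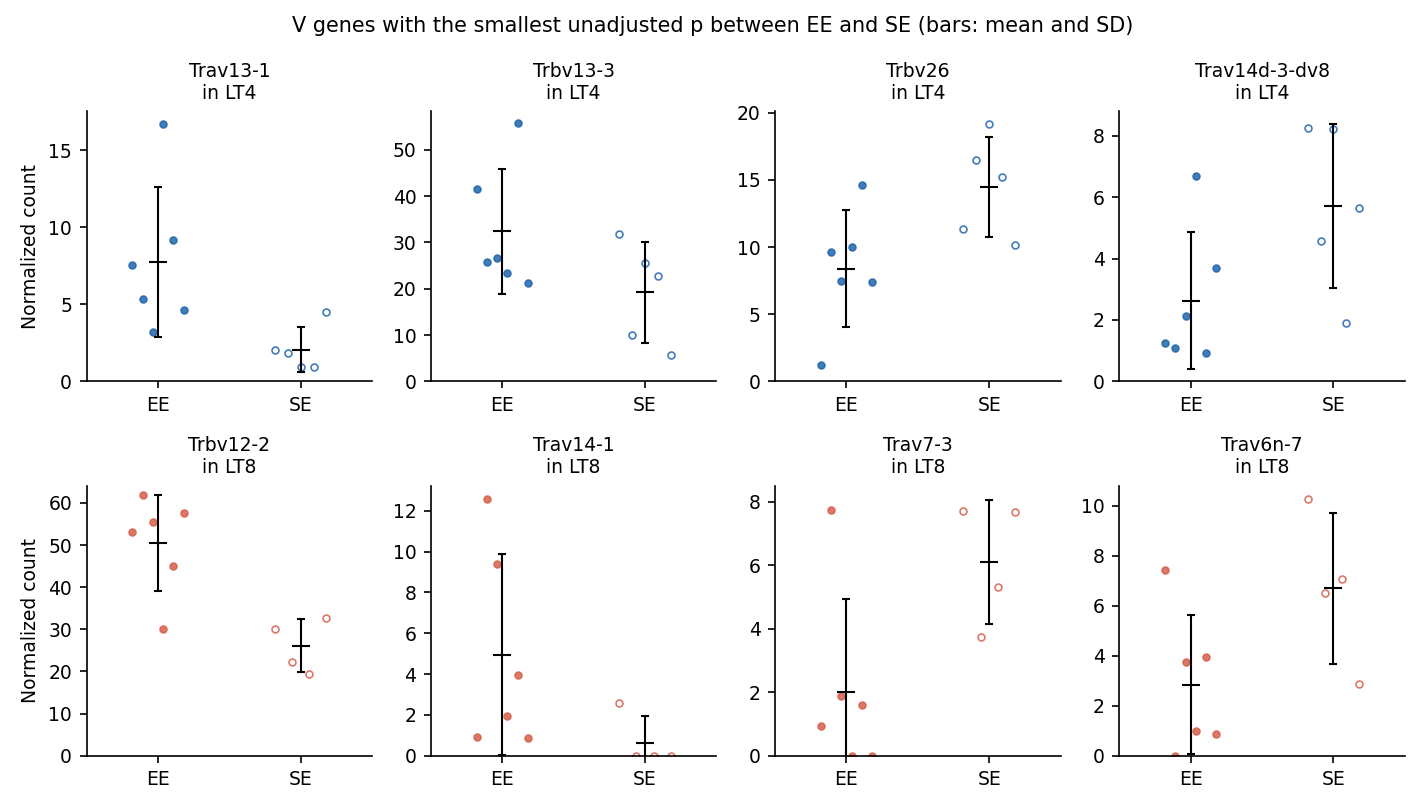
Normalized count by sample in EE (filled) and SE (open) for the V genes with the smallest unadjusted p in each direction, in CD4+ cells (LT4, upper row) and CD8+ cells (LT8, lower row), with bars for the mean and SD. All panels show genes that did not pass the adjusted test, and in Trbv12-2 the 6 EE samples lie at 30.1 to 61.8 and the 4 SE samples at 19.4 to 32.7.

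The smallest p was that of Trbv12-2 (ENSMUSG00000094525) in CD8+ cells. Its normalized count was 30.1, 54.2 and 61.8 (lowest, median, highest) in the 6 EE samples and 30.0, 22.4, 19.4 and 32.7 in the 4 SE samples. A single EE sample, from EE mouse 4, fell within the SE range. The log2 difference (EE minus SE) was 0.92 (SE 0.19, unadjusted p = 1.8e-05, limma adjusted p = 0.138). As a share of Trbv molecules it was 17.1% ± 3.70 (SD, n = 6; 12.6 to 22.3) in EE, and 9.94, 8.16, 6.36 and 12.2% in SE, so that the shares did not overlap (exact permutation p = 0.00952, where 0.00476 is the smallest possible). In CD4+ cells the same gene held 9.64% ± 3.18 (SD, n = 6 EE mice) and 9.85% ± 3.64 (SD, n = 5 SE mice) of Trbv molecules (exact permutation p = 0.913). The interaction was -0.82 (CD4+ effect minus CD8+ effect, SE 0.31, unadjusted p = 0.0096, limma adjusted p = 0.940) and did not pass. Without the CD8+ cells of EE mouse 4 its limma adjusted p between EE and SE was 0.00798, and without those of SE mouse 6 it was 0.0168.

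Also in CD8+ cells, Trav14-1 was at 0.859, 2.95 and 12.6 in EE and at 2.57, 0, 0 and 0 in SE (log2 difference 1.68, limma adjusted p = 0.813). Trav7-3 was at 0, 1.26 and 7.73 in EE and at 7.71, 3.72, 5.30 and 7.69 in SE (-1.62, limma adjusted p = 0.680). Its mean share of Trav molecules was 1.09% ± 1.49 (SD, n = 6) for the former and 3.65% ± 1.62 (SD, n = 4) for the latter (exact permutation p = 0.0381). The single high EE sample, from EE mouse 2, was as high as the highest SE sample. Trav6n-7 was at 0, 2.37 and 7.44 in EE and at 10.3, 6.52, 7.07 and 2.88 in SE (-1.26, limma adjusted p = 0.920), and its groups overlapped.

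In CD4+ cells, Trav13-1 was at 3.21, 6.46 and 16.7 in EE and at 2.06, 1.83, 0.914, 0.950 and 4.50 in SE. The groups overlapped through 1 SE sample, and the log2 difference was 1.47 (SE 0.46, unadjusted p = 0.00252, limma adjusted p = 0.629). Its share of Trav molecules was 3.18% ± 1.74 (SD, n = 6) and 0.884% ± 0.632 (SD, n = 5) (exact permutation p = 0.0108). Trbv13-3 was at 21.2, 26.2 and 55.8 in EE and at 31.9, 10.1, 25.6, 22.8 and 5.63 in SE (0.87, limma adjusted p = 0.629). Trbv26 was at 1.26, 8.57 and 14.6 in EE and at 11.3, 16.5, 19.2, 15.2 and 10.1 in SE (-0.89, limma adjusted p = 0.775). Trbv26 lay lower in EE than in SE for most samples, with overlap, and its share was 2.58% against 4.87% (exact permutation p = 0.0325). Trav14d-3-dv8 was at 0.914, 1.70 and 6.68 in EE and at 8.2, 4.58, 8.23, 1.90 and 5.63 in SE (-0.97, limma adjusted p = 0.835; exact permutation p of its share = 0.0498). Of 33 shares tested without adjustment, 3 in CD4+ and 2 in CD8+ cells had an exact permutation p under 0.05. All 5 of these were among the genes named for the smallest p between EE and SE in the same samples, so the count restates that choice.

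Trbv16 went opposite ways in the 2 populations, with a log2 difference between EE and SE of 1.13 in CD4+ cells (limma adjusted p = 0.629) and of -0.78 in CD8+ cells (limma adjusted p = 0.923). Its interaction of 1.91 (SE 0.57, unadjusted p = 0.00146) had a limma adjusted p of 0.924 and did not pass. The shares by group were 5.00 and 2.78% in the EE and SE samples of CD4+ cells, and 7.26 and 10.5% in those of CD8+ cells.

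V genes tied to unconventional T cells had few molecules. Trav11 and Trav11d, copies identical over all 342 bases of the shorter transcript, which carry the invariant chain of natural killer T cells, had 3 and 4 molecules in the CD4+ cells of EE mouse 1, 3 and 2 in those of SE mouse 4, and 5 and 7 in the CD8+ cells of EE mouse 2. Trav1 was detected in 6 of 11 CD4+ and 4 of 10 CD8+ samples, and Trdv2-2 in 6 of 11 and 5 of 10. Trav11 was listed at 0 in the other samples, and Trav11d reached at most 2 molecules in any of them. Trav1, the alpha gene of mucosal-associated invariant T cells, had 8 molecules in the CD4+ and 5 in the CD8+ cells of SE mouse 6. Trav1 was at or below 1.83 in the other SE CD4+ samples and at 0 in the other SE CD8+ samples. The J segment that marks these chains is not in the table, so a Trav1 or Trav11 molecule does not by itself show such a cell. The delta genes Trdv1 (12 molecules in CD4+ and 8 in CD8+ samples) and Trdv2-2 (15 and 17) were sparse in both populations and were not tested. Trav4-2 (13 molecules) and Trav9n-2 (5 molecules) were seen in CD4+ cells alone, and 0 of 1859 Trav molecules in CD8+ cells allows a share of up to 0.161%, for counting error only.

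Around the V genes, a list of 21 further receptor and recombination genes was followed (constant regions, CD3 chains and the genes that cut, open or join segments). Of the 12 tested, 1 passed between CD4+ and CD8+ cells, against 4.4% of all 7938 genes, so the count does not set this list apart. It was Cd247, which encodes the zeta chain that signals for the receptor (log2 difference 0.49, SE 0.13, limma adjusted p = 0.0101), while Trac gave 0.43 (limma adjusted p = 0.132). Of these 12, 0 passed between EE and SE in either population, against 0.0126% of all genes in CD4+ and 0.0% in CD8+ cells. Their median difference between CD4+ and CD8+ cells was -0.04, where that of the 59 V genes was 0.36.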

How the data were processed

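RNA of sorted CD4+ and CD8+ spleen T cells was measured in 21 samples by 5′ template-switch libraries with UMIs, sequenced on an Ion Proton. The deposited values are normalized UMI counts, which the authors divided by DESeq2 size factors (signal per gene, not divided by length) after cutadapt and STAR 2.4.0a (mm10, GRCm38), as the submitters' processing notes name them. The methods text for RNA-seq describes how spleen cells were prepared, but much of it is written for choroid plexus samples. Every value gave a whole number of molecules (100% within 0.0001), and shares used these. Libraries held 145546 to 221454 molecules, so low V genes rest on few molecules, and intervals and limits cover counting error only.

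Whole-table limma 3.58.1 fits (R 4.3.3, trend) used log2(normalized count + 1), which understates changes of low genes. Genes with a mean above 2 in the fitted samples were tested 2-sided, with Benjamini-Hochberg adjustment over all of them. CD4+ and CD8+ cells were compared over all 21 samples and averaged over the environments, and EE with SE over the samples of 1 population. Shares were tested in Python 3.11.15 (SciPy 1.17.1, NumPy 2.4.6, pandas 2.3.3) by 2-sided permutation of the difference of means, with 100000 resamples between populations and exactly between environments. Figures used Matplotlib 3.10.9. Alternatives were edgeR 4.0.16 and DESeq2 1.42.0 on the recovered molecules, another pseudocount, filters and scaling, blocks, each environment alone and each sample left out. The fits were tested first on simulated data in which all genes had the same dispersion, so the larger spread of V genes was not covered.

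Pairing of CD4+ and CD8+ samples comes from the labels' environment and animal number. The 9 pairs deviated together only weakly (mean r = 0.014 over 7938 genes). No 2 samples of a group agreed within counting noise (46 pairs, largest chi-square p = 6.00e-119).

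V genes named are the 8 with the largest mean share in each chain, all those called between populations, the 2 higher and 2 lower with the smallest p between environments in each population, Trav1, Trav11, Trav11d, the Trbv12 and Trbv13 genes, and delta genes. Trbv15 and Trbv23, Trav12-3 and Trav12d-3, Trav4-2, Trav9n-2 and the Trav4 copies were named after their values were seen. Members and lists were chosen with earlier results of these data known. Gene positions and transcripts are from GENCODE M21 (GRCm38). The sorted cell numbers per pool were not used here.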

Additional observations from a re-analysis of the deposited data

Results flagged for a closer look

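In groups of 4 to 6 samples, 23 of 140 groups checked held a sample far from the others by Dixon's test at its 95% level, where chance flags about 1 in 20 groups of measured values. That rate does not hold for sparse genes, where a group at 0 in all samples but 1 meets the rule with any molecule at all. For the Trbv genes these were normalized counts of 29.0 for Trbv12-1 in the CD8+ cells of EE mouse 2 (others 7.91 to 14.9), 41.7 for Trbv14 in the CD8+ cells of EE mouse 4 (others 8.37 to 16.3) and 33.1 for Trbv16 in the CD4+ cells of EE mouse 3 (others 9.14 to 16.4). Trbv29 was at 0 in the CD8+ cells of EE mouse 1, where the other EE CD8+ samples were at 14.2 to 21.4.

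Among the Trav genes, Trav12-2 was at 19.6 in the CD4+ cells of SE mouse 1 (others 1.83 to 6.76), Trav12n-3 at 11.9 in the CD8+ cells of EE mouse 5 (others 1.94 to 5.64) and Trav13-1 at 18.9 in the CD8+ cells of EE mouse 6 (others 2.37 to 8.37). Trav14-1 was lowest, at 1.03, in the CD4+ cells of SE mouse 1 (others 2.74 to 3.38) and was at 2.57 in the CD8+ cells of the same mouse (others 0). Trav7-3 was the highest of its group in both populations of EE mouse 2, at 2.15 in CD4+ (2 molecules, others 0) and 7.73 in CD8+ cells (others 0 to 1.88). Trav7-4 was at 6.73 in the CD8+ cells of SE mouse 6 (others 0).

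Genes of unconventional T cells were high in single mice. Trav1 was at 9.01 in the CD4+ (others 0 to 1.83) and 4.81 in the CD8+ cells (others 0) of SE mouse 6. Trav11 was at 3.78 in the CD4+ cells of EE mouse 1, 2.74 in those of SE mouse 4 and 4.83 in the CD8+ cells of EE mouse 2, each time with 0 in the others of the group. Trav11d was at 5.04 (others 0 to 1.83), 1.83 (others 0) and 6.76 (others 0) in the same 3 samples. Of the delta genes, Trdv1 was at 1.07 in the CD4+ cells of EE mouse 3 and at 0.971 in the CD8+ cells of EE mouse 4, with 0 in the other samples of each group and a single molecule each, and Trdv2-2 was at 3.66 in the CD4+ cells of EE mouse 5 (others 0 to 1.07). Trav1 in SE mouse 6 and Trav7-3 in EE mouse 2 were thus the highest of their group in both populations of 1 mouse. For Trav7-3 the CD4+ value rested on 2 molecules, and an SE sample of CD4+ cells lay higher. This sharing within a mouse was not tested further.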

How the results depend on the processing

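Between CD4+ and CD8+ cells, 16 V genes were called. The count was 6 of 14 tested with a mean above 10 (fewer genes were tested), 10 by DESeq2, 8 with EE samples only and 5 with SE samples only (fewer samples), and 14 to 16 with a pseudocount of 0.5, no filter, equal totals or edgeR. With mouse as a replicate block it was 12, of which 11 were among the 16. Leaving out 1 sample gave 11 to 16 (lowest without the CD8+ cells of SE mouse 6). Save for the fit without a filter, these counts are not set against all genes, so they do not show whether other genes fell alike. Trav14-2 was kept with EE samples only, and every other Trav call was lost with either environment alone. Between EE and SE in CD8+ cells, the fit paired by animal number, which gives no shared origin, called 1 V gene (Trbv12-2, limma adjusted p = 0.0103), and leaving out 1 sample gave 0 to 1. In CD4+ cells and for the interaction the count was 0 in all settings run. Sums over families (14 called) and over Trav copies (14 called, of which 4 were Trav sums and 10 were single Trbv genes) were added after seeing the data, as were the family sums between EE and SE (0 called).

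Some values changed sign, none of them of a gene called between the populations, and the cause was not tested. The log2 difference of CD4+ and CD8+ cells was -0.027 for Trav12-2, 0.29 for Trav13-1, 0.18 for Trav3d-3 and 0.30 for Trbv13-3 with EE samples only, and -0.047 for Trav14d-1, -0.15 for Trav6n-7 and 0.14 for Trbv12-2 with SE samples only. That of Trav13-1 was also 0.0043 with the smaller pseudocount, 0.012 with equal totals and 0.36 with mouse as a block. In percentage points, the difference of shares with SE samples only was 0.0321 for Trav1, 0.189 for Trav11, 0.536 for Trav12-2, 0.756 for Trav14-1, -1.03 for Trav6n-7 and 0.675 for Trbv12-2, and for Trbv26 it was -1.15 with EE samples only and -0.238 over pairs of the same mouse. Leaving out 1 sample moved the log2 difference from -0.061 to 0.30 for Trav12-2, -0.15 to 0.21 for Trav13-1 and -0.16 to 0.13 for Trbv13-3. It moved the share difference from -0.369 to 0.264 for Trav1, -0.156 to 0.243 for Trav11, -0.126 to 0.414 for Trav11d, -0.547 to 0.483 for Trav14-1, -0.291 to 0.766 for Trav14d-1, -0.321 to 0.419 for Trav6n-7, -1.83 to 0.210 for Trbv13-3 and -0.0352 to 0.666 for Trbv26. Of single genes under the other settings, 235 values kept side and direction, 37 lost the threshold, 3 gained it and 10 changed sign. Samples held 122 to 318 Trav molecules, which limits the precision of single Trav genes, beside the uncertain assignment of reads to copies.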
